A study of Mus musculus with 4 samples.

Results

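Surface proteins that immunologists use to place a cell along the path from lymphoid progenitor to small pre-B cell were followed here through their genes: Kit, Flt3, Cd34, Ly6a, Ly6d, Bst1, Spn, Cd24a, Il2ra and Cd93. These 10 genes were chosen by name, as stage markers, with earlier results of these data known. All 10 were found among the 23284 gene symbols of each library. Expression was measured by RNA-seq in pre-B cells of C57BL/6J mice, with 1 library for each of 4 groups. A wild-type and a STAP-2 transgenic library came from steady-state marrow, STAP-2 being a signalling adaptor encoded by Stap2. A wild-type library and a library labelled STAP-2 knockout came from marrow 1 month after its transplantation. Library titles carry a number that the steady-state pair shares and another that the transplanted pair shares. The sources used here do not give the meaning of these numbers, the promoter of the transgene, the exons deleted, the mice per library, the sort gates or the recipient cells that remained. The study asked which pathways STAP-2 controls in B lymphopoiesis under stress.

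B cells arise in bone marrow from progenitors that carry the cytokine receptors Kit and Flt3. As cells commit to the lineage they gain Ly6d, then CD24, and they pass through pro-B stages marked by CD43 (the product of Spn) and BP-3 (the product of Bst1). Large pre-B cells divide and give rise to small resting pre-B cells; along this path Kit and CD43 are lost and CD25 (the product of Il2ra) is gained. CD93, the antigen AA4.1, stays on B lineage cells from the early progenitor to the newly formed B cell.

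Values are FPKM, fragments per kilobase of transcript and per 1e6 mapped fragments. Low FPKM values move in steps worth a single read, and these steps put the depth at 7300000 reads (steady-state wild type), 7270000 (transgenic), 7750000 (transplanted wild type) and 8680000 (library labelled knockout). Each group is a single library; differences have no replicate check, and no p-value is given. The 95% intervals of ratios come from the estimated reads and cover counting error only. Stap2 stood at 0.212, 0.536, 0 and 0.179 FPKM in that order of libraries, from 2, 5, 0 and 2 reads, which checks neither genotype label. In transplanted wild type 3 reads would have been 0.298 FPKM. Every direction given for the library labelled knockout therefore rests on its label alone. For the cell type label, 13 of 13 pre-B markers were detected in all 4 libraries, with a summed level of 6851 to 7666 FPKM. Of 10 stem and multipotent progenitor markers, 7 were below 1 FPKM in every library, and Procr and Tek were listed at 0 in all 4. In bulk RNA, fewer cells of a type and less RNA per cell cannot be told apart.

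Promoter windows of RefSeq on GRCm38.p6, from 250 bases before to 50 bases after the start site, were found for 5 of the 10 genes: Kit, Flt3, Cd34, Spn and Il2ra. Ly6a, Ly6d, Bst1, Cd24a and Cd93 had no entry. Those of Kit, Spn and Il2ra are shown because they stand for the progenitor, the pro-B and the pre-B end of the marker order. Capitals mark matches to the ETS core GGAAGT on either strand.
Kit, chr5:75574737-75575036, plus strand: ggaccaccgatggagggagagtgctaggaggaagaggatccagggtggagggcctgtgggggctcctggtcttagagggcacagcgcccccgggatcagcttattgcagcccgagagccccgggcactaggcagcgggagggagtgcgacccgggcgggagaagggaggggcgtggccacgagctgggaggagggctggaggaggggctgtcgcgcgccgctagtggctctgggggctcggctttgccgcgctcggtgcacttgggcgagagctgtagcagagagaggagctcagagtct
Spn, chr7:127137774-127138073, minus strand: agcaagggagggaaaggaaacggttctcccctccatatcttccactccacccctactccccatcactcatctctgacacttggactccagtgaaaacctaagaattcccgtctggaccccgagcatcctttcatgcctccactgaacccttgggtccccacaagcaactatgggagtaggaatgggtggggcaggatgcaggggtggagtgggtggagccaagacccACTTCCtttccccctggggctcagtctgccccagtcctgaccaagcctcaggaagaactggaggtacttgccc
Il2ra, chr2:11642542-11642841, plus strand: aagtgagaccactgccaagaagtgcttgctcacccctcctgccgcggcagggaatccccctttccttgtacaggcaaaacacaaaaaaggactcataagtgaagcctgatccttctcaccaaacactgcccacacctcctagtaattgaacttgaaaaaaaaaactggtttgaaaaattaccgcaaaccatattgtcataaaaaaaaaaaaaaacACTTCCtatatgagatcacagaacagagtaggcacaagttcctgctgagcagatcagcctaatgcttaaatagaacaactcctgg

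The Spn window held its ETS match 23 bases before the start site and the Il2ra window 35 bases before it. Flt3 had a match 75 bases before its start, while the Kit and Cd34 windows had none. Of all 32851 windows of 300 bases, 23.8% held this motif. The STAT motif TTCNNNGAA was in 8.30% of all windows, the interferon response core GAAANNGAA in 8.56% and the GATA motif AGATAA in 11.2%, on either strand, and none of the 5 genes held a match to any of them. The E-box CANNTG, present in 72.3% of windows, was found in Kit, Flt3 and Spn. These letters describe the windows only and say nothing of binding.

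The markers fell into a barely detected and an abundant group, and the division was the same in all 4 libraries. Kit, Flt3 and Cd34 stayed below 1 FPKM throughout, whereas the other 7 genes were above 20 FPKM in every library. Ly6d and Cd24a, which mark commitment to the B lineage, ranked between 31 and 93 among all genes by FPKM. They were followed by Cd93 (ranks 463 to 742) and Il2ra (1026 to 1532). Bst1 (1820 to 3062) and Spn (4039 to 4628) lay lower, and Ly6a moved between rank 657 and rank 3109.

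**Figure D1:**
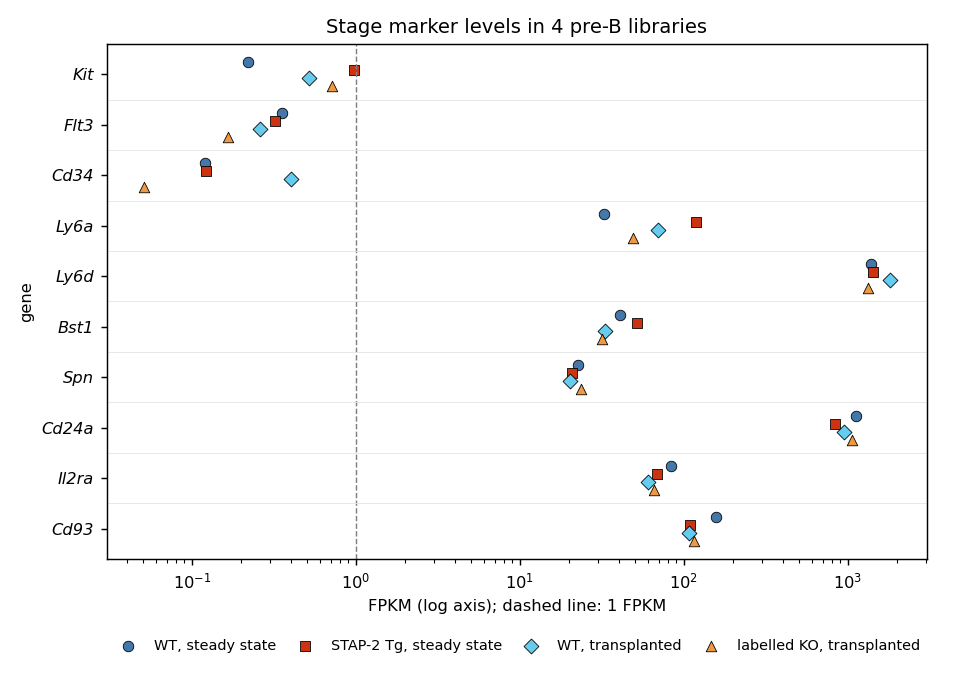
FPKM of the 10 stage markers (log axis) in each of the 4 libraries, 1 symbol per library. Kit, Flt3 and Cd34 lie to the left of the dashed line at 1 FPKM, Ly6d and Cd24a lie farthest to the right, and Ly6a has the widest spread among the 7 genes to the right of the line.

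Kit (chromosome 5, 75574916 to 75656722, plus strand, GRCm38), the receptor of stem cell factor, stood at 0.220 FPKM in steady-state wild type, 0.971 in transgenic cells, 0.520 in transplanted wild type and 0.720 in the one labelled knockout. These values rest on about 8, 35, 20 and 31 reads, and steady-state wild type had the lowest. Its ratio between transgenic and wild type was 4.41 (95% interval 2.0 to 11.0), the largest among the markers, yet no library reached 1 FPKM. The ratio of transplanted to steady-state wild type was 2.36 (0.993 to 6.18), and that of the library labelled knockout to transplanted wild type 1.38 (0.765 to 2.56), so neither could be told from 1 at this depth. No neighbours in the order of the 4 libraries were separated by their intervals. Mast cells and basophils can carry Kit, and their markers differed among themselves. Hdc, the histamine-forming enzyme, was at 0.314, 2.22, 1.72 and 1.22 FPKM in the same order of libraries, lowest and highest where Kit was, with a ratio of 7.06 (2.74 to 23.0) for transgenic over wild type. The basophil protease genes Mcpt8 and Prss34 went the other way, from 1.30 and 1.22 FPKM in steady-state wild type to 0 in transgenic cells. The 10 markers summed to 3.11, 2.33, 8.95 and 11.6 FPKM, with Hdc making up most of the transgenic sum. Without Mcpt8 they came to 1.81, 2.33, 5.68 and 7.43 FPKM. Of the 10, 4 were listed at 0 in all libraries: Mcpt4, Tpsb2, Tpsab1 and Cma1. The part of such cells in the Kit values was not tested. The ligand gene Kitl was near the detection limit, at 0.0439 to 0.131 FPKM.

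Flt3 (chromosome 5, 147330741 to 147400489, minus strand) encodes the receptor of FLT3 ligand on lymphoid progenitors. Its level was 0.356 FPKM in steady-state wild type, 0.319 in transgenic cells, 0.262 in transplanted wild type and 0.167 in the one labelled knockout. With 9, 8, 7 and 5 reads the libraries could not be separated, and even the ratio of the highest to the lowest, 2.13, had an interval of 0.644 to 8.12. The ligand gene Flt3l was well expressed, at 17.9, 17.8, 22.5 and 14.7 FPKM. Dendritic cells also carry Flt3, and 8 of 10 dendritic cell markers were below 1 FPKM in every library. Cd34 (chromosome 1, 194938819 to 194961279, plus strand), a sialomucin of stem and progenitor cells, had 2, 2, 7 and 1 reads, or 0.121, 0.122, 0.3998 and 0.0510 FPKM, and its levels had the least support of all the markers. Of 10 endothelial and stromal markers, whose cells can carry CD34, 6 were below 1 FPKM in every library. The ratio of the library labelled knockout to transplanted wild type was 0.128 (0.00283 to 0.994), from 1 and 7 reads, and no neighbours in its order were separated.

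Ly6a (chromosome 15, 74994877 to 74998031, minus strand) encodes Sca-1, a glycolipid-anchored protein of stem cells and activated lymphocytes. It differed most among the 7 well-expressed markers. Its level was 32.3 FPKM in steady-state wild type, 118 in transgenic cells, 69.7 in transplanted wild type and 48.6 in the one labelled knockout. The order was thus transgenic, transplanted wild type, library labelled knockout and steady-state wild type, and neighbours were further apart than counting error, at ratios of 1.69 (1.49 to 1.93), 1.43 (1.23 to 1.67) and 1.5036 (1.24 to 1.82). The ratio was 3.65 (3.08 to 4.33) for transgenic over wild type and 2.15 (1.80 to 2.58) for transplanted over steady-state wild type. It was 0.698 (0.6003 to 0.811) for the library labelled knockout over its wild type. Its range over the 4 libraries was 1.84 on the log2(FPKM + 1) scale, wider than that of 98.8% of the 11053 genes that reached 1 FPKM in any library.

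Ly6a belongs to a family of close copies, between which reads can be divided wrongly, so its values are uncertain to that extent. Of its relatives Ly6c2 was at 15.9, 21.8, 26.1 and 15.1 FPKM and Ly6c1 at 0.273 to 1.502, on no more than 7 reads. Ly6e, also induced by interferon, was at 746, 779, 922 and 811 FPKM. Over the family, Ly6a and Ly6d included, 13 of 14 genes were matched. In the transgenic comparison 6 of 7 at 1 FPKM or more were higher (median 0.39), against 46.7% of all genes. With libraries rescaled to the same sum 4 of 7 were. In the library labelled knockout 1 of 6 was higher (44.0% of all genes, median -0.42). In transplanted against steady-state wild type 5 of 6 were (45.9%, median 0.35), or 4 of 6 with equal sums. The shares over all genes are those before rescaling.

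Ly6a responds to interferon, and interferon-stimulated genes were low in the same library. The sum of 15 such genes was 435 FPKM in steady-state wild type, 1353 in transgenic cells, 992 in transplanted wild type and 1291 in the one labelled knockout. Ifi27l2a made up most of this sum, and the other 14 genes came to 87.3, 189, 209 and 226 FPKM. Relative to steady-state wild type the median difference of all 15 was 1.03, 1.19 and 1.36 in the other libraries on the log2(FPKM + 1) scale, where Ly6a had 1.84, 1.08 and 0.57. Ly6a and these genes therefore shared the low library but not the order of the rest. Summed neutrophil markers were at 771, 1845, 1697 and 655 FPKM in the same order, with 12 of 12 detected in each, and the part of either group in the Ly6a values was not tested. T cell and innate lymphoid markers, whose cells can carry Sca-1, summed to no more than 5.80 FPKM, with 8 of 10 below 1 FPKM in every library.

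**Figure D2:**
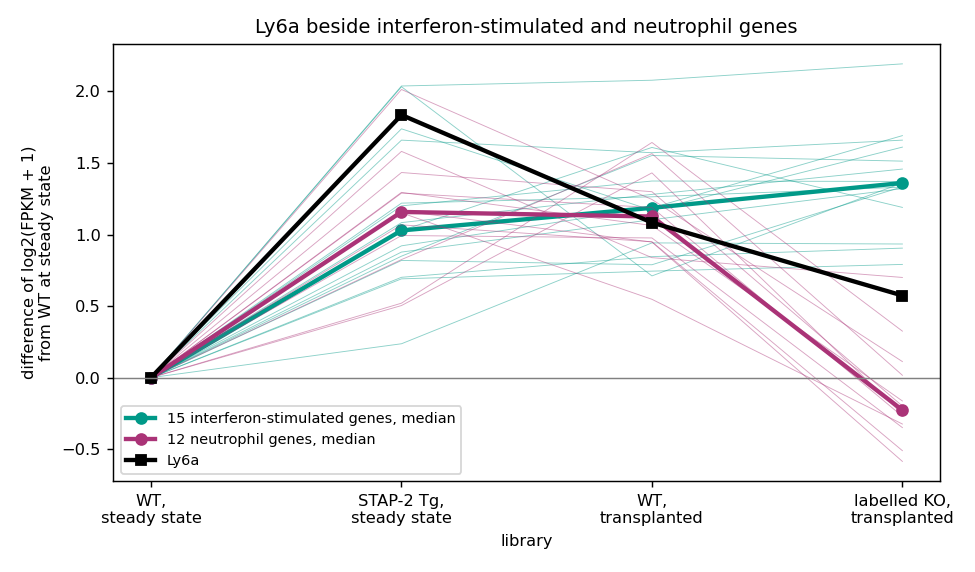
Difference of log2(FPKM + 1) from wild type at steady state for Ly6a (black), 15 interferon-stimulated genes and 12 neutrophil genes (thick lines: medians, thin lines: single genes) in the 4 libraries; lines only join the values of a gene. In the library labelled knockout the interferon-stimulated genes had a median of 1.36, the neutrophil genes of -0.23, and Ly6a stood between them at 0.57.

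Ly6d (chromosome 15, 74762056 to 74763620, minus strand), a small glycolipid-anchored antigen that divides B-committed from uncommitted lymphoid progenitors, was among the most abundant transcripts. Its level was 1374 FPKM in steady-state wild type, 1417 in transgenic cells, 1797 in transplanted wild type and 1329.9 in the one labelled knockout. The transplanted wild type was the high library, and no neighbours among the other 3 were separated by their intervals. Transgenic and wild type differed by no more than counting error, at a ratio of 1.03 (0.993 to 1.07), and that difference changed sign, to -0.08 on the log2 scale, when each library was rescaled to the same sum. The ratio of transplanted to steady-state wild type was 1.31 (1.26 to 1.35) and that of the library labelled knockout to transplanted wild type 0.740 (0.716 to 0.766).

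Cd24a (chromosome 10, 43578284 to 43584265, plus strand), the heat-stable antigen gained at the pro-B stage, had 1115 FPKM in steady-state wild type, 833 in transgenic cells, 940.1 in transplanted wild type and 1054 in the one labelled knockout. All neighbours in this order were separated, and transgenic over steady-state wild type, the low over the high library, gave a ratio of 0.747 (0.728 to 0.767). The ratio was 0.843 (0.822 to 0.865) for transplanted over steady-state wild type and 1.12 (1.09 to 1.15) for the library labelled knockout over its wild type. In each library Ly6d was above Cd24a, and the ratio of their levels, on which no scaling between libraries bears, was 1.23 and 1.70 at steady state and 1.91 and 1.26 after transplantation. Erythroid cells also carry CD24. The sum of 7 erythroid markers was 36.7 FPKM in steady-state wild type and 5.18, 6.58 and 9.37 in the others, most of it from Hba-a1, and 4 of the 7 were below 1 FPKM in all libraries. Neutrophils carry CD24 as well, and their markers summed to 771, 1845, 1697 and 655 FPKM. The part of either cell type in the Cd24a values was not tested.

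Cd93 (chromosome 2, 148436640 to 148443563, minus strand), which encodes the C1q receptor-like antigen AA4.1, had 156 FPKM in steady-state wild type, 109 in transgenic cells, 107 in transplanted wild type and 115 in the one labelled knockout. The steady-state wild type stood above the other 3 libraries, which lay close together. The ratio was 0.701 (0.677 to 0.727) for transgenic over wild type and 0.688 (0.664 to 0.713) for transplanted over steady-state wild type, and these comparisons share the steady-state wild type. Plasma cells can carry CD93, and 5 of their marker genes summed to 420 FPKM in steady-state wild type, 301.3 in transgenic cells, 96.9 in transplanted wild type and 90.9 in the one labelled knockout. Igj made up most of the difference, and the other 4 came to 115, 97.2, 80.3 and 83.7 FPKM, with Xbp1 at 63.1, 60.7, 56.8 and 53.8. Monocytes and macrophages can carry it too. Their 10 markers summed to 100.5, 138, 141 and 96.2 FPKM, most of it Ly86, which B cells also express. The other 9 came to 5.90, 13.9, 28.4 and 11.3 FPKM, and C1qa, a complement subunit of macrophages, was at 0.468, 3.46, 7.08 and 2.77. Both were in the reverse of the Cd93 order. For Cd93 transgenic cells and transplanted wild type were not separated, at a ratio of 1.02 (0.981 to 1.06). The part of either cell type in the Cd93 values was not tested.

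Bst1 (chromosome 5, 43818885 to 43843986, plus strand) encodes BP-3, a glycolipid-anchored ectoenzyme of early B and myeloid cells. Its level was 40.6 FPKM in steady-state wild type, 51.8 in transgenic cells, 33.1 in transplanted wild type and 31.8 in the one labelled knockout. The transgenic library was the highest, with a ratio to its wild type of 1.27 (1.16 to 1.401), and both transplant libraries were below both steady-state ones. Between the transplant libraries the ratio was 0.961 (0.864 to 1.07), and on the scale of equal sums the direction turned, to a difference of 0.05. The gene overlaps Fbxl5, at 98.3 to 109 FPKM on the opposite strand. The kit keeps strand, but the sources used here do not say whether the counting did. Neutrophils also carry BP-3, and their summed markers were at 771, 1845, 1697 and 655 FPKM. Like Bst1, this sum was highest in the transgenic library and lowest in the one labelled knockout. Without S100a8 it was 478, 1126, 1084 and 393 FPKM, in the same order. Not all of its genes had this order. Elane, Mpo and Prtn3 were highest in transplanted wild type, at 41.6, 38.8 and 26.7 FPKM. In the transgenic library they were at 24.5, 19.9 and 11.7 FPKM. Retnlg, Mmp8, Elane and Prtn3 were lowest in steady-state wild type. For Bst1 the transplant libraries were not separated. From steady-state to transplanted wild type the marker sum rose, whereas Bst1 fell, at a ratio of 0.815 (0.735 to 0.905). The part of neutrophils in the Bst1 values was not tested.

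Spn (chromosome 7, 127132232 to 127137823, minus strand), the gene of the sialomucin CD43 by which pro-B cells are separated from small pre-B cells, was the steadiest of the 7 well-expressed members. It had 22.7 FPKM in steady-state wild type, 20.7 in transgenic cells, 20.3 in transplanted wild type and 23.6 in the one labelled knockout, and no neighbours in this order were separated. The ratio of transgenic to wild type was 0.910 (0.808 to 1.03), and that of the library labelled knockout to its wild type 1.16 (1.04 to 1.30). Of the 7 genes it alone had a range over the libraries, 0.21 on the log2(FPKM + 1) scale, below the median of 0.31 over all 11053 genes. Neutrophils, monocytes and eosinophils can carry CD43 too. In the same order of libraries, neutrophil markers summed to 771, 1845, 1697 and 655 FPKM. Monocyte and macrophage markers summed to 100.5, 138, 141 and 96.2, and 5 eosinophil markers to 4.0, 49.1, 4.66 and 2.19. The part of such cells in the Spn values was not tested.

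Il2ra (chromosome 2, 11642807 to 11693193, plus strand), the alpha chain of the interleukin-2 receptor and the usual marker of pre-B cells, had 83.2 FPKM in steady-state wild type, 68.1 in transgenic cells, 60.3 in transplanted wild type and 65.99 in the one labelled knockout. Steady-state wild type was the high library, and the transgenic one and the one labelled knockout were not separated. The ratio was 0.818 (0.771 to 0.867) for transgenic over wild type, 0.724 (0.682 to 0.768) for transplanted over steady-state wild type and 1.09 (1.03 to 1.16) for the library labelled knockout over its wild type. Il2ra was above Spn in each library, by a ratio of 3.67 and 3.30 at steady state and 2.97 and 2.79 after transplantation. Of the chains it pairs with, the shared gamma chain gene Il2rg was at 105 to 157 FPKM and the beta chain gene Il2rb at no more than 1.55, and Il2 was listed at 0 in all 4 libraries. A list of ligands and receptor chains of the markers had 8 matched genes. In the transgenic comparison 3 of 6 at 1 FPKM or more were higher, against 46.7% of all genes. In the library labelled knockout 0 of 5 were (44.0%, median -0.48), and in transplanted against steady-state wild type 5 of 6 (45.9%, median 0.43). The list also holds Cd200, which is no ligand or chain of the markers. Cd200 had the largest difference in both of the latter, at -0.76 and 1.01. Foxp3, the factor of the regulatory T cells that also carry CD25, was at 0.0661 to 0.185 FPKM.

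**Figure D3:**
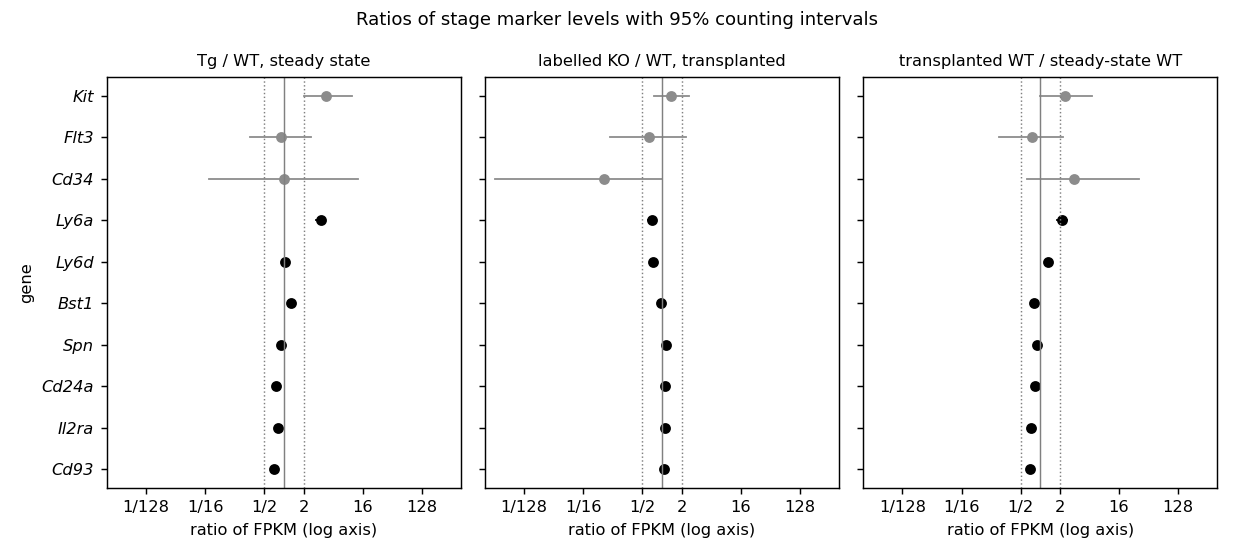
Ratio of FPKM (log axis) with its 95% counting interval for the 10 markers in 3 comparisons; grey marks genes below 1 FPKM in both libraries, dotted lines mark 2-fold. The intervals of Kit, Flt3 and Cd34 are wide, and among the other genes Ly6a alone passes the upper dotted line, in the left and the right panel.

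Counted over the list, 7 of the 10 markers reached the minimum of 1 FPKM in either library in every comparison, and Kit, Flt3 and Cd34 did not. Calls were made at 2-fold on the log2(FPKM + 1) scale. Between transgenic and wild type 1 of these 7, Ly6a, was at least 2-fold higher, where 1.22% of 10843 genes were, and none was at least 2-fold lower, where 0.682% were. In all, 3 were higher and 4 lower, against 46.7% of all genes higher, and their median difference was -0.13 against -0.02. Between the library labelled knockout and transplanted wild type no marker passed 2-fold, where 0.667% of 10790 genes were higher and 1.18% lower by that much. Of the 7, 4 were higher (44.0% of all genes) at a median of 0.10 against -0.03. Over all genes this comparison had 72 calls higher and 127 lower, which became 117 and 105 on the scale of equal sums.

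Between transplanted and steady-state wild type Ly6a was again the 1 marker at least 2-fold higher, where 1.67% of 10835 genes were, and none was 2-fold lower, where 0.628% were. On the scale of equal sums its difference, 1.08, became 0.98 and the call was lost. The other 6 comprised Ly6d, which was higher, and Bst1, Spn, Cd24a, Il2ra and Cd93, which were lower, so that 2 of 7 were higher against 45.9% of all genes. Their median difference was -0.25 against -0.02. Here transplantation and the number in the titles differ together and cannot be told apart, and the comparison shares a library with each of the other comparisons.

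**Figure D4:**
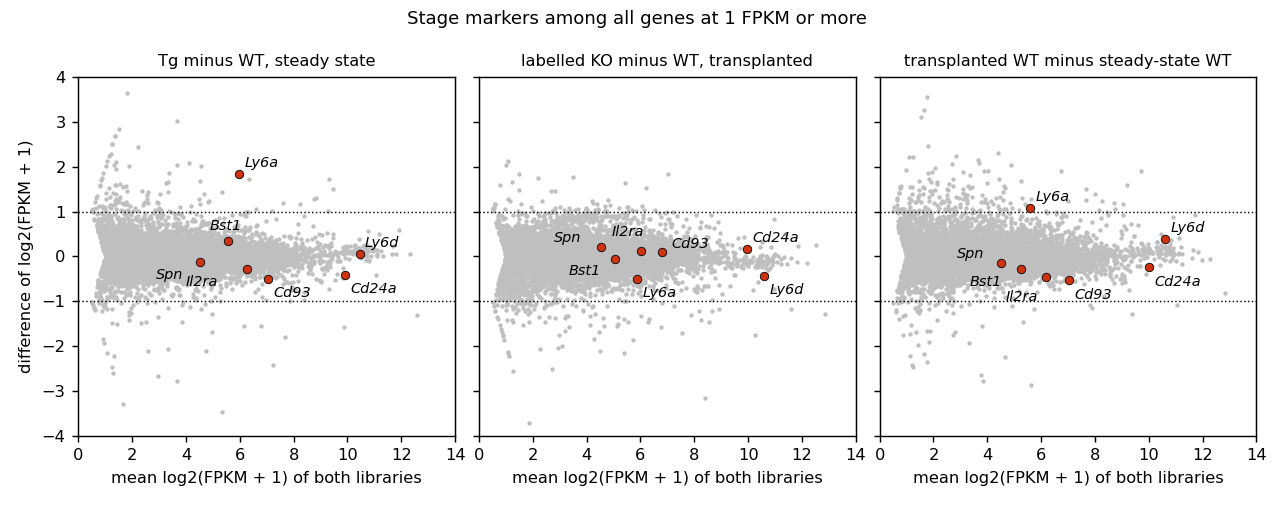
Difference of log2(FPKM + 1) against its mean for all genes that reached 1 FPKM in either library (grey) and the 7 markers that pass this filter (red); dotted lines mark 2-fold, and 30, 20 and 29 genes lie beyond the axis limit of 4. Ly6a stands above the cloud at 1.84 in the left panel and just above the dotted line at 1.08 in the right one.

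Steady-state wild type held the lowest or the highest value of 6 of the 10 markers. It did so for 54.2% of the 11053 genes that reached 1 FPKM in any library. The 10 markers include Kit, Flt3 and Cd34, which did not reach 1 FPKM, so count and share are not over like genes. Steady-state wild type was lowest for Kit and Ly6a and highest for Flt3, Cd24a, Il2ra and Cd93. The transgenic library was highest for Kit, Ly6a and Bst1 and lowest for Cd24a. Transplanted wild type was highest for Cd34 and Ly6d and lowest for Spn, Il2ra and Cd93. The library labelled knockout was highest for Spn and lowest for Flt3, Cd34, Ly6d and Bst1.

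Other stage genes were followed in the same libraries. Of 20 further surface genes of the B lineage, 12 of 19 at 1 FPKM or more were higher and 7 lower in the transgenic comparison (median 0.05), with none at 2-fold. With libraries rescaled to the same sum this turned to 7 higher and 12 lower (median -0.07). In the library labelled knockout 6 were higher and 14 lower, at a median of -0.32 and again with none at 2-fold. In transplanted against steady-state wild type 13 were higher and 7 lower, at a median of 0.27. Ms4a1, Enpep and Csf1r, 3 of them, were at least 2-fold higher, where 1.67% of all genes were. Csf1r is also on the list of monocyte and macrophage markers. Over all genes 46.7%, 44.0% and 45.9% were higher in these comparisons, in that order. Enpep, the gene of BP-1, the aminopeptidase that marks late pro-B and large pre-B cells, had 3.0 FPKM in steady-state wild type, 6.15 in transgenic cells, 7.38 in transplanted wild type and 9.64 in the one labelled knockout. Like Kit and Ly6a it was lowest in steady-state wild type, with a ratio of 2.05 (1.58 to 2.69) for transgenic over wild type. Ms4a1, the gene of CD20, which appears as B cells mature, was at 156, 171, 412 and 263 FPKM, so that transplanted wild type was the high library. Csf1r, a receptor of monocytes and macrophages, was at 0.632, 0.825, 2.78 and 1.0 FPKM, and the tetraspanin gene Cd9 at 6.52, 11.5, 12.3 and 7.84.

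Another list held 12 genes of pro-B and pre-B cells that act inside the cell or in the pre-B receptor. In the transgenic library 4 were at least 2-fold higher, where 1.22% of all genes were, and 8 were lower by less than that. Over all genes 46.7% were higher by any amount in the transgenic comparison and 44.0% in the library labelled knockout. In transplanted against steady-state wild type 45.9% were. The 4 were Dntt, Igll1, Vpreb1 and Vpreb2. The same 4 were at least 2-fold higher in transplanted than in steady-state wild type, where 1.67% of all genes were, and 7 of the 12 were higher. Both comparisons share the steady-state wild-type library, which was the lowest for each of the 4, so they are not separate observations. Against transplanted wild type, 8 of 12 were higher in the library labelled knockout, none by 2-fold. Vpreb1, which encodes a surrogate light chain component, had 7.31, 34.4, 30.2 and 38.6 FPKM. Dntt, the enzyme that adds untemplated bases in pro-B cells, was at 2.12 and 7.53 FPKM at steady state and at 12.1 and 15.1 after transplantation. Cell cycle genes, which large pre-B cells express, were higher in 16 of 16 cases in the transgenic library (median 0.38) and in 16 of 16 in the library labelled knockout (median 0.91). Between transplanted and steady-state wild type 13 of 16 were lower, at a median of -0.23. These directions of the cell cycle medians held under the 3 rescalings of libraries. Il2ra was lower in the transgenic library, where they were higher, and higher in the library labelled knockout, where they were higher too.

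**Figure D5:**
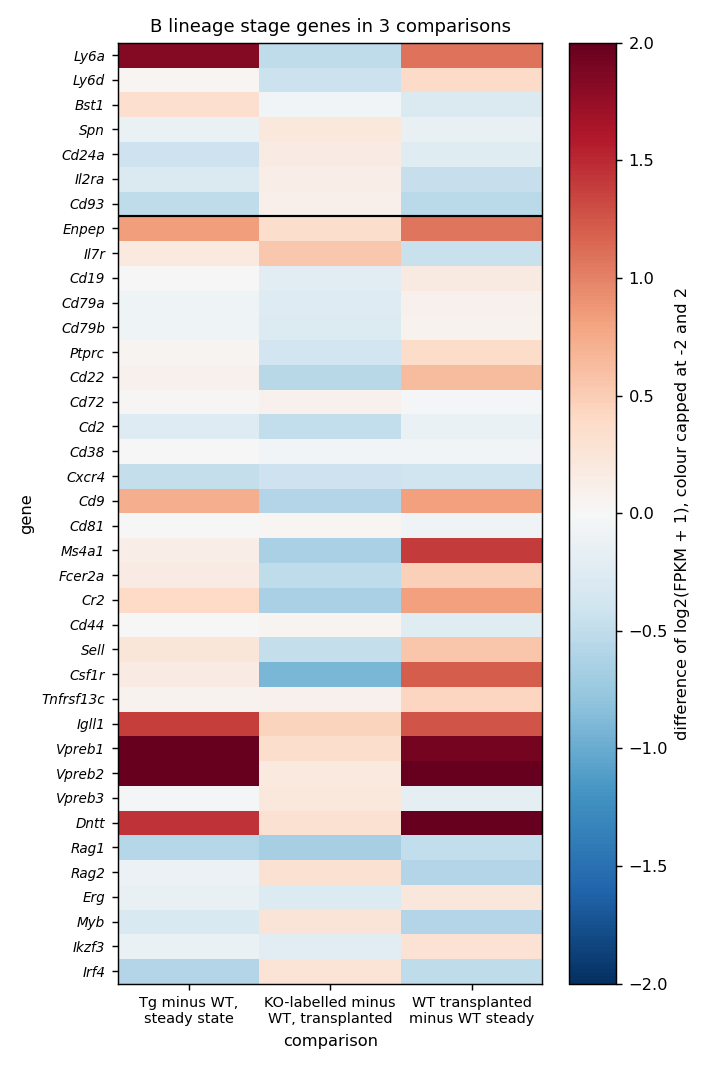
Difference of log2(FPKM + 1) in 3 comparisons (columns) for the 7 markers at 1 FPKM or more (above the black line) and further stage genes of the B lineage (below it); red is higher, blue lower, and colours are capped at -2 and 2. Ly6a, Enpep, Igll1, Vpreb1, Vpreb2 and Dntt are red in the left and right columns, and Il2ra, Cd93 and Cd24a are blue there. Those columns share the steady-state wild-type library.

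Among markers at 5 FPKM or more, Ly6a and Bst1 had the widest range. The 5 genes with the most similar profile to each were sought among 7988 genes at 5 FPKM or more in any library with a transcript of 300 nt or more. Likeness was the root mean square difference of log2(FPKM + 1), centred on its mean, over 4 libraries. Nearest to Ly6a were Il9r (0.15), S100a6 (0.21), Gm7609 (0.24), Retnlg (0.26) and Hist2h4 (0.26), the last a multigene family member whose reads are uncertain. Retnlg is also on the list of 12 neutrophil markers and was at 10.6, 45.7, 26.4 and 11.5 FPKM. The median of that list stood apart from Ly6a in the library labelled knockout, at -0.23 against 0.57 relative to steady-state wild type. Il9r, a cytokine receptor chain gene, was at 2.65, 8.89, 5.29 and 3.44 FPKM. Nearest to Bst1 were Pon3 (0.04), Il15ra (0.04), Smagp (0.04), Rab31 (0.05) and Impact (0.06), with Il15ra at 8.33, 9.95, 6.51 and 6.15 FPKM.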

How the data were processed

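Per the labels' protocols, a miRNeasy kit gave the RNA and a stranded TruSeq mRNA kit the libraries. The submitters' processing notes name mm10, Cufflinks 2.2.1, TopHat2 2.0.13, SAMtools 0.1.19 and Bowtie2 2.2.3. The annotation, filters and any scaling between libraries are not stated there. The values the authors deposited are read as FPKM from the values and the Cufflinks column name. They are not counts, and Cufflinks divides reads between similar genes.

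Reads were estimated as FPKM times depth times transcript length less 210 nt (GENCODE M21), with depth set where the most values of 1 to 20 reads came out whole. Of 2435 such values in genes with 1 annotated transcript, 69.4% came within 0.1 of a whole number, where 20% would by chance; the same values set the depth. Ratios are of FPKM with 95% exact Clopper-Pearson intervals. Differences are of log2(FPKM + 1). No molecular identifiers are named in the labels. The procedure was tested on simulated data. Members, gene lists and the naming rule (the members, up to 4 genes of each list by largest difference, and genes most like a member) were chosen with earlier results of these data known. Other list genes (Kitl, Flt3l, Il2rg, Il2rb, Il2, Foxp3, Ly6e and the marker genes of other cells) were named after their values were seen. Of 23284 symbols 20911 are in GENCODE M21. Python 3.11.15, SciPy 1.17.1 and pandas 2.3.3 were used. Alternatives were other pseudocounts (0.1 and 0.5), filters (none and 5 FPKM), scalings and a 1.5-fold threshold.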

Additional observations from a re-analysis of the deposited data

How the results depend on the processing

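Ly6a was past the fold threshold between transgenic and wild type under all 8 alternatives tried. The filters, the lower pseudocounts and the 1.5-fold threshold could not have removed a Ly6a call at its levels, so only the scalings could. Under those its difference was 1.72 (equal sums), 1.85 (median of gene ratios) and 1.86 (upper quartile). No marker was past the threshold between the library labelled knockout and its wild type under any of the 8. Between transplanted and steady-state wild type the count of markers went from 1 to 0 when libraries were rescaled to the same sum, and was the same under the other 7. Of 30 differences of markers, 3 changed sign, each under that scaling alone: Ly6d and Cd34 between transgenic and wild type (-0.08 and -0.01) and Bst1 between the transplant libraries (0.05). That scaling moved the median of all genes to -0.13, 0.06 and -0.12 in the 3 comparisons. The low markers depended on the pseudocount: Kit differed by 0.69 between transgenic and wild type at a pseudocount of 1 and by 1.74 at 0.1, and Cd34 by -0.41 and -1.73 between the transplant libraries. Genes past 2-fold numbered 206 for the transgenic comparison, with 434 at a pseudocount of 0.1, 113 at a filter of 5 FPKM and 664 at 1.5-fold. For the library labelled knockout they numbered 199, with 421 and 303 at pseudocounts of 0.1 and 0.5, 132 at 5 FPKM and 880 at 1.5-fold. For transplanted against steady-state wild type they numbered 249, with 504 at a pseudocount of 0.1 and 810 at 1.5-fold. No paired analysis was possible because each group has 1 library, which also left no replicate to leave out. The scalings were also applied to the gene lists, a check chosen after seeing the data. Depth limits Kit, Flt3 and Cd34, which rest on 1 to 35 reads.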

Other observations

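Some marker genes of other cells, picked after their values were seen, differed between the steady-state and the transplant libraries. Cxcl12, the chemokine of marrow stromal cells, had 4.26 FPKM in steady-state wild type, 7.65 in transgenic cells, 0.348 in transplanted wild type and 0.155 in the one labelled knockout, the last on about 4 reads. Vcam1, an adhesion molecule from the same list of endothelial and stromal genes, had another order, at 0.684, 1.94, 1.78 and 1.19 FPKM. Meis1, a homeobox gene of stem and progenitor cells, was at 1.30 and 1.03 FPKM at steady state and at 0.120 and 0.220 after transplantation. The plasma cell gene Igj was at 306, 204, 16.6 and 7.23 FPKM and Tnfrsf17, the plasma cell receptor BCMA, at 3.61, 1.59, 0.427 and 0.191. Slamf1, a surface receptor of stem cells and lymphocytes, had another order, with 2.64 and 2.0 FPKM at steady state and 4.73 and 1.44 after transplantation.

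The basophil protease genes Mcpt8 and Prss34 were at 1.30 and 1.22 FPKM in steady-state wild type, both listed at 0 in the transgenic library, and at 3.27 and 3.07 in transplanted wild type and 4.20 and 3.88 in the library labelled knockout. Hdc, from the same list, did not share this order, at 0.314, 2.22, 1.72 and 1.22 FPKM. Fcer1a, a chain of the IgE receptor of these cells, was listed at 0 in 3 libraries, while the one labelled knockout had 1.13 FPKM from about 8 reads.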
